A study of Sus scrofa with 24 samples.

Results

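Fetal pig livers, collected 63 days post conception (dpc), were ranked by a stromal score, and the 8 livers with the highest score were set against the 8 with the lowest, out of 24 livers in all. The score used 4 genes of the supporting tissue: COL1A1 and COL1A2, which encode the 2 chains of type I collagen, COL3A1, the chain of type III collagen, and DCN, which encodes decorin, a small proteoglycan on collagen fibrils. The probe set with the largest mean of each gene was converted to z scores over the 24 arrays, and the 4 z scores were averaged. The groups were therefore chosen from measured values of the same arrays, and the 4 score genes are described below but were not tested between the groups. All 24 livers carry the same labels: liver tissue, 63 dpc, an F2 genotype from German Landrace (DL) and Pietrain (Pi), and no treatment. The study set out to compare growth-restricted with normally grown littermates. The labels do not tie an array to a growth group, a sex or a dam, and siblings are among the 24 livers, so these cannot be told apart from the score. Each value is a log2 level from 1 Affymetrix Snowball array per fetus, made with the RMA algorithm, so a difference of 1 is a 2-fold difference in signal.

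In the liver, fibrillar collagen is made by mesenchymal cells. These are the stellate cells between hepatocytes and sinusoids, the fibroblasts of the portal tracts and capsule, and the smooth muscle cells and pericytes of the vessel walls. Collagens, elastic fibre proteins and proteoglycans form the scaffold on which the growing lobules, bile ducts and vessels are built. In the fetus the liver also houses blood formation. Whole liver RNA was measured, so fewer cells of a type and less RNA per cell cannot be told apart.

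The arrays of the score groups differed little in general measures. The 95th percentile of 69 background control probe sets lay at 6.52 to 6.79 in high-score livers and 6.62 to 6.82 in low-score livers, so a level near 6 was within reach of the brighter background controls. The median of the filtered probe sets was 7.03 to 7.13 in high-score livers and 6.99 to 7.09 in low-score livers. Hepatocyte markers were far above the background controls in every liver, with TTR, the gene of the thyroxine carrier transthyretin, at 12.87 to 13.10 in high-score livers and 12.70 to 13.11 in low-score livers. Fetus 312 of the high-score livers and fetus 311 of the low-score livers were the most extreme on the first principal component (20.9% of the variance), at 17.8 and 18.1. The 8 livers between the groups lay from -10.7 to 9.40, and fetus 281 of the high-score livers at 11.9. Fetus 274, the liver with the lowest score, lay farthest out on the second component, which held 10.2% of the variance. The call of COL5A2 and the counts of matrix, erythroid and cell cycle genes are given with and without these 3 livers.

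The score ranged from 0.25 to 2.10 with a median of 1.19 in high-score livers and from -1.89 to -0.70 with a median of -0.93 in low-score livers. The last liver inside the high-score group, fetus 363, had a score of 0.25 and the first liver outside it, fetus 324, one of 0.21. At the other border, fetus 360 was inside the low-score group at -0.70 and fetus 320 was outside it at -0.41. The high-score border thus ran through livers of almost equal score, whereas the low-score border fell in a wider gap.

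COL1A1 had the widest difference of the 4 genes that defined the groups. Its level was 6.99 to 8.40 with a median of 8.09 in high-score livers and 5.70 to 6.60 with a median of 6.20 in low-score livers, a mean difference of 1.61 or 3.06-fold. DCN was at 6.75 to 7.91 in high-score livers and 5.07 to 6.04 in low-score livers, a mean difference of 1.48 or 2.79-fold. COL1A2 and COL3A1 differed by 1.20 and 0.95 in the mean. Fetus 297 had the highest levels of COL1A2, COL3A1 and DCN, and fetus 274 had the lowest levels of all 4 genes. The 4 genes followed each other over the 24 livers, with Pearson's r of 0.89 to 0.96 between pairs (n = 24 livers); the genes were picked with such relations known, so this describes the choice. Of the 4 other probe sets of COL1A1, the 2 brighter ones differed by 1.40 and 1.12, and the 2 dim ones, at levels near 3, by 0.09 and 0.08.

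**Figure D1:**
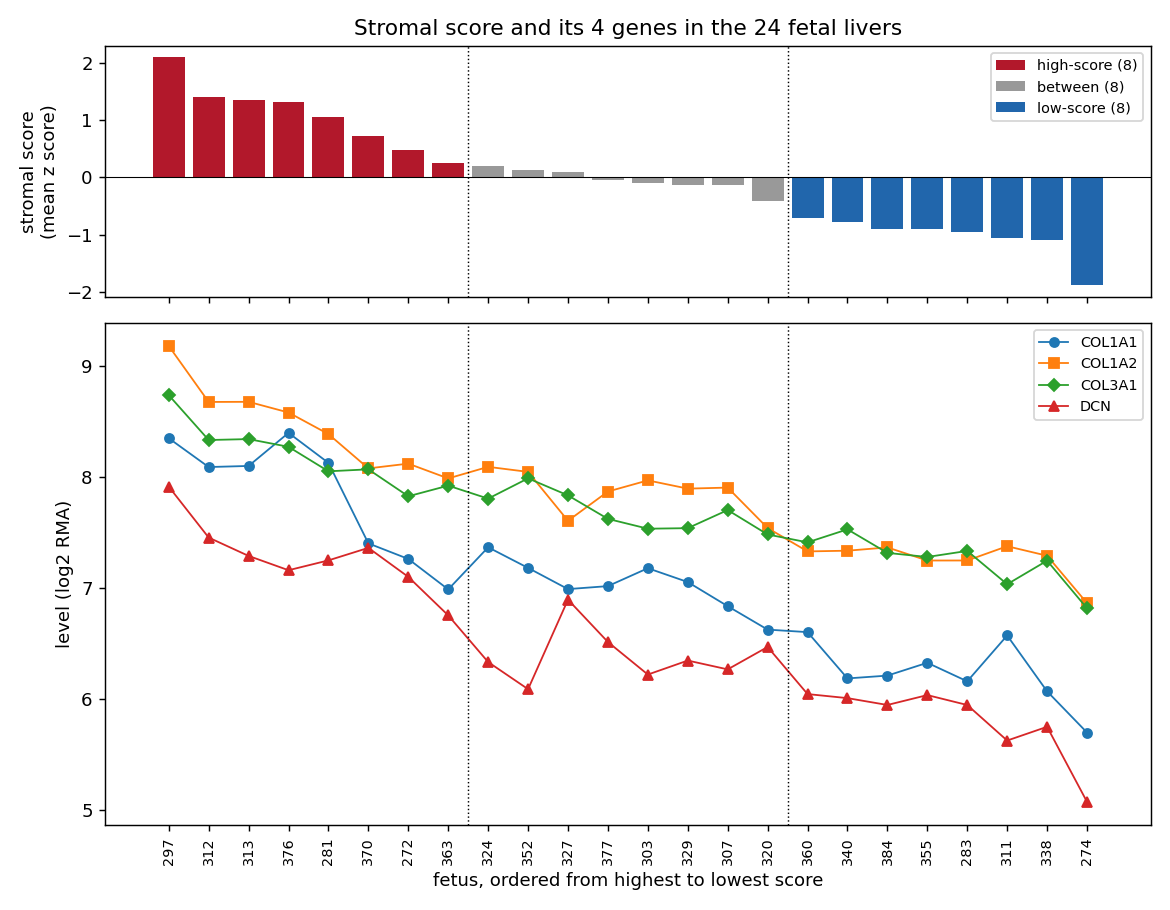
The upper panel shows the stromal score (mean z score) and the lower panel the log2 RMA level of COL1A1, COL1A2, COL3A1 and DCN in each of the 24 livers, ordered from the highest to the lowest score; dotted lines mark the borders of the 8 high-score and 8 low-score livers. COL1A1 lies between 6.99 and 8.40 in high-score livers and between 5.70 and 6.60 in low-score livers.

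The comparison asked which other genes differed between livers that were rich and poor in these collagen transcripts. It covered 3375 genes, each with a log2 level of 6 or more in 18 or more of the 24 arrays. Only 1 gene, the type V collagen gene COL5A2, was higher in high-score livers at an adjusted p under 0.05 (limma, Benjamini-Hochberg), which is 0.0296% of the genes tested, and none was lower (0%). At an unadjusted p under 0.05, 180 genes (5.33%) were higher and 20 genes (0.593%) were lower in high-score livers, 200 in all or 5.93%. The 8 high-score livers lay wholly above the 8 low-score livers for 3 genes (0.0889%), namely COL5A2, ACTA2 and PIGY, and wholly below them for none (0%). As deposited, 69.2% of the genes had a higher mean in high-score livers and the median difference was 0.04. The counts of list members with a higher or lower mean given below are to be read beside this share. Aligning the medians of the arrays sets that share near 50.0% by construction, and the genes at an unadjusted p under 0.05 were then split into 70 higher and 58 lower.

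**Figure D2:**
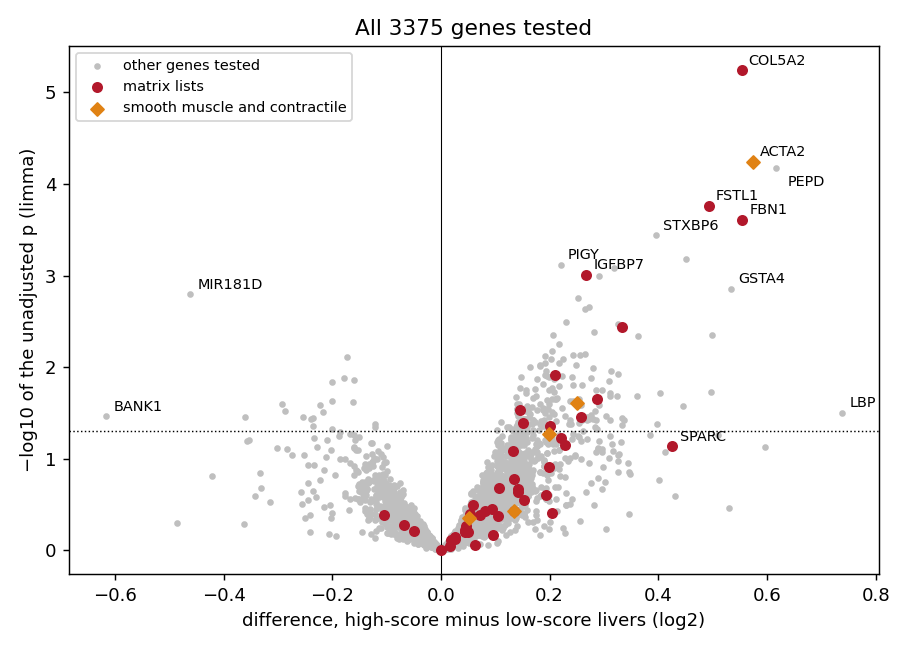
Each point is 1 of the 3375 genes tested; the horizontal axis gives the log2 difference, high-score minus low-score livers, and the vertical axis the −log10 of the unadjusted p from limma, with a dotted line at 0.05. Genes of the matrix lists are red and contractile genes orange; COL5A2 has the smallest p and ACTA2 the next.

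Genes for the extracellular matrix and its assembly lay toward the high-score side as a group. The 7 matrix lists named 146 genes besides the score genes, of which 134 had a named probe set and 44 passed the level filter. A gene that was low in all 8 low-score livers could not pass that filter, so these 44 are the brighter part of the matrix genes. Of the 44, 41 had a higher mean in high-score livers, beside 69.2% of all genes tested, and 1, COL5A2, passed the test. At an unadjusted p under 0.05, 11 were higher, beside 5.33% of all genes, and none was lower, beside 0.593%. The median difference of the 44 was 0.13, against 0.04 over all genes tested. With the array medians aligned, 36 of the 44 had a higher mean, beside 50.0% of all genes, and the median difference was 0.09. In that setting 7 were higher at an unadjusted p under 0.05, beside 2.07% of all genes. Without fetuses 274, 311 and 312, 39 had a higher mean and 12 were higher at an unadjusted p under 0.05, beside 77.4% and 7.29% of all genes tested in that setting.

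COL5A2 encodes a chain of type V collagen, which is built into type I collagen fibrils and sets their diameter. Its level in high-score livers was 6.35 at the lowest, 6.52 at the median and 7.04 at the highest, and in low-score livers it was 5.82, 6.01 and 6.15. The groups did not overlap, and the livers between them had a median of 6.20, between the medians of the groups. COL5A2 rose by 0.55 (SE 0.088, 95% interval 0.37 to 0.74, 1.47-fold), with an adjusted p of 0.0192 (limma). The low-score levels lay near the lower limit of the filter and within the range of the background controls. The high-score levels other than that of fetus 297 were within that range too. The 95th percentile of the controls reached 6.79 in high-score livers. Fetus 297 had the highest level, 7.04, and the other high-score livers reached 6.66 at most. A dimmer probe set of COL5A2 differed by 0.49 in the mean and followed the first with r = 0.75 over the 24 livers.

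The call of COL5A2 did not withstand every change of the sample. Its difference was 0.53 without fetus 274 (adjusted p = 0.0584, limma), 0.54 without fetuses 311 and 312 (adjusted p = 0.122) and 0.51 without all 3 (adjusted p = 0.200). With aligned array medians the difference was 0.51 with an adjusted p of 0.102. Over all alternatives in which it was tested, the adjusted p ranged from 2.04e-07, in a regression on the score over 24 livers, to 0.200.

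Of 16 fibrillar and associated collagens listed besides the score genes, COL5A2 and COL14A1 passed the level filter. COL14A1, a collagen on the surface of fibrils, had levels of 6.47 to 6.80 in high-score livers and 5.96 to 6.73 in low-score livers. The groups overlapped, and the difference of 0.20 had an unadjusted p of 0.0437 and an adjusted p of 0.811 (limma). COL5A1, the partner chain of COL5A2 in type V collagen and chosen after its values were seen, was below the filter at 5.57 to 6.31 in high-score livers and 5.24 to 6.34 in low-score livers, and differed by 0.09.

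Elastic fibre genes showed the next largest differences among the matrix lists. The 3 of 17 listed genes that passed the filter, FBN1, FBLN1 and LTBP1, were all higher in high-score livers at an unadjusted p under 0.05. None passed the test after adjustment in the main comparison. FBN1 encodes fibrillin, the main protein of microfibrils. Its levels were 6.78, 7.09 and 7.53 (lowest, median, highest) in high-score livers and 6.15, 6.51 and 6.95 in low-score livers. The ranges overlapped only through 3 high-score livers that lay below the highest low-score liver, fetus 360. The difference was 0.55 (SE 0.122, 1.47-fold), with an adjusted p of 0.166 (limma). Over all alternatives the adjusted p of FBN1 ranged from 0.00639, with 12 against 12 livers, to 0.445. The 2 next brightest of its 4 probe sets differed by 0.42 and 0.41. FBLN1, which encodes fibulin, a protein that joins elastic fibres and basement membranes, was at 6.80 to 7.40 in high-score livers and 6.34 to 7.01 in low-score livers, a difference of 0.33 with an adjusted p of 0.641. LTBP1, which holds latent TGF-beta in the matrix, differed by 0.26 with an adjusted p of 0.811.

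Among secreted matricellular proteins, which bind matrix and growth factors without building fibres, FSTL1 and IGFBP7 differed most clearly and SPARC least evenly. FSTL1, a follistatin-like glycoprotein of mesenchymal cells, was at 6.91, 7.23 and 7.70 in high-score livers and 6.48, 6.74 and 6.96 in low-score livers. Only 1 high-score liver, fetus 272, fell below the highest low-score liver. The difference was 0.49 (SE 0.105, 1.41-fold) with an adjusted p of 0.146 (limma), and a second bright probe set differed by 0.38. Over all alternatives the adjusted p of FSTL1 ranged from 0.00124, in a regression on the score over 24 livers, to 0.393. IGFBP7, which binds insulin-like growth factors and type IV collagen, was at 6.38, 6.66 and 6.83 in high-score livers and 6.25, 6.40 and 6.50 in low-score livers, a difference of 0.27 with an adjusted p of 0.312. Again 7 of the 8 high-score livers lay above all low-score livers, the exception being fetus 313.

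SPARC, a collagen-binding glycoprotein, was at 8.35, 8.81 and 9.14 in high-score livers and 7.43, 8.24 and 9.31 in low-score livers. The low-score livers covered a wider range than the high-score livers, from fetus 274 at the bottom to fetus 311 at the top. The difference of 0.43 had an SE of 0.224 and an adjusted p of 0.852 (limma). Of the 9 list members that passed the filter, 8 had a higher mean in high-score livers and 2 were higher at an unadjusted p under 0.05. The shares over all genes tested were 69.2% and 5.33%.

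Proteoglycans and basement membrane genes were higher in the mean in all tested members, by small amounts. All 8 tested proteoglycans had a higher mean in high-score livers, beside 69.2% of all genes tested. Their median difference was 0.08 and none reached an unadjusted p of 0.05. With the array medians aligned, 6 of the 8 had a higher mean, beside 50.0% of all genes. BGN, which encodes biglycan, a close relative of decorin, was at 7.73, 7.91 and 8.52 in high-score livers and 7.37, 7.78 and 8.09 in low-score livers. The groups overlapped and the difference of 0.23 had an adjusted p of 0.849 (limma). The syndecans SDC4 and SDC2, cell surface proteoglycans that many cell types carry, differed by 0.13 and 0.09. All 4 tested basement membrane genes had a higher mean as well, among them LAMC1, LAMB1 and HSPG2, which encode 2 laminin chains and perlecan. LAMC1 differed by 0.15 with an unadjusted p of 0.0294 and an adjusted p of 0.811, LAMB1 by 0.11 and HSPG2 by 0.14.

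Genes that make and process collagen showed the same direction with less separation. All 10 tested members had a higher mean in high-score livers, 9 with aligned array medians, and the median difference was 0.11. The shares over all genes were 69.2% and 50.0%. SERPINH1 encodes HSP47, the chaperone of procollagen in the endoplasmic reticulum. It was at 6.75, 7.04 and 7.33 in high-score livers and 6.09, 6.76 and 7.03 in low-score livers. The difference of 0.29 had an unadjusted p of 0.0222 and an adjusted p of 0.811 (limma), and the low value of 6.09 belonged to fetus 338, while the other low-score livers were at 6.67 or above. SEC23A, a coat protein of the vesicles that carry procollagen to the Golgi, differed by 0.15 with an unadjusted p of 0.0405. CTSK, a collagen-degrading cathepsin, differed by 0.13.

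Of the 8 tested proteases and inhibitors of the matrix, 6 had a higher mean in high-score livers, beside 69.2% of all genes tested. Of these 8, 1, CTSB, was higher at an unadjusted p under 0.05, beside 5.33% of all genes. CTSB encodes the lysosomal protease cathepsin B, which most cells make. It was at 10.63, 10.76 and 10.97 in high-score livers and 10.28, 10.58 and 10.82 in low-score livers, a difference of 0.21 with an adjusted p of 0.811 (limma). MMP14, the membrane-bound collagenase, differed by 0.22 and ADAMTS9, which cleaves versican, by 0.20. Both had groups that overlapped and adjusted p of 0.847 and 0.903.

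The contractile gene ACTA2 separated the groups as fully as COL5A2. ACTA2 encodes smooth muscle actin, which is found in vessel walls and in activated stellate cells. Its levels were 7.15, 7.40 and 8.06 in high-score livers and 6.60, 6.86 and 7.12 in low-score livers. All high-score livers lay above all low-score livers, although the lowest of them, fetus 363, was only just above the highest low-score liver, fetus 340. The difference was 0.57 (SE 0.110, 95% interval 0.34 to 0.81, 1.49-fold), and the adjusted p of 0.0746 (limma) missed the threshold. Actin genes are close in sequence, and signal from other actins was not tested. The second probe set of ACTA2 differed more, by 0.86, and where the probe set with the largest SD stood for each gene the adjusted p was 0.00926. A regression on the score over all 24 livers gave a slope of 0.28 per unit of score with an adjusted p of 0.00119. Over all alternatives the adjusted p of ACTA2 ranged from 0.00119 to 0.227.

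The other contractile genes pointed the same way with smaller differences. All 5 tested members had a higher mean in high-score livers, also with aligned array medians, and the median difference was 0.20. At an unadjusted p under 0.05, 2 were higher, and 1 with aligned array medians. As deposited, the shares over all genes tested were 69.2% and 5.33%. CNN3, an actin-binding calponin, was at 7.50, 7.83 and 8.15 in high-score livers and 7.30, 7.60 and 7.98 in low-score livers, a difference of 0.25 with an adjusted p of 0.811 (limma). TPM1, a tropomyosin, differed by 0.20. The mean level of the 5 genes was 7.57 to 7.89 in high-score livers and 7.32 to 7.62 in low-score livers, so the ranges met at their edges.

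Tested members of the stellate cell list differed little, with a median difference of 0.09. Of 25 listed, 5 passed the filter, and their mean level was 7.41 to 7.69 in high-score livers and 7.29 to 7.59 in low-score livers. VIM, which encodes the mesenchymal intermediate filament vimentin and is also made by blood and endothelial cells, was at 8.41, 8.55 and 9.08 in high-score livers and 8.06, 8.33 and 8.97 in low-score livers. Except for fetus 311 at 8.97, all low-score livers were at 8.37 or below and so below every high-score liver. The difference was 0.31 with an unadjusted p of 0.0193 and an adjusted p of 0.811 (limma), and a second probe set differed by 0.37. RELN and COLEC10, a secreted glycoprotein and a collectin that stellate cells make, differed by 0.15 and 0.09 with adjusted p of 0.982 and 0.979. RELN was also counted in the matricellular list. ALCAM, a cell adhesion molecule of mesothelial cells, was the only tested member of the portal fibroblast and mesothelial list and differed by 0.17 (adjusted p = 0.955). All these genes had groups that overlapped.

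**Figure D3:**
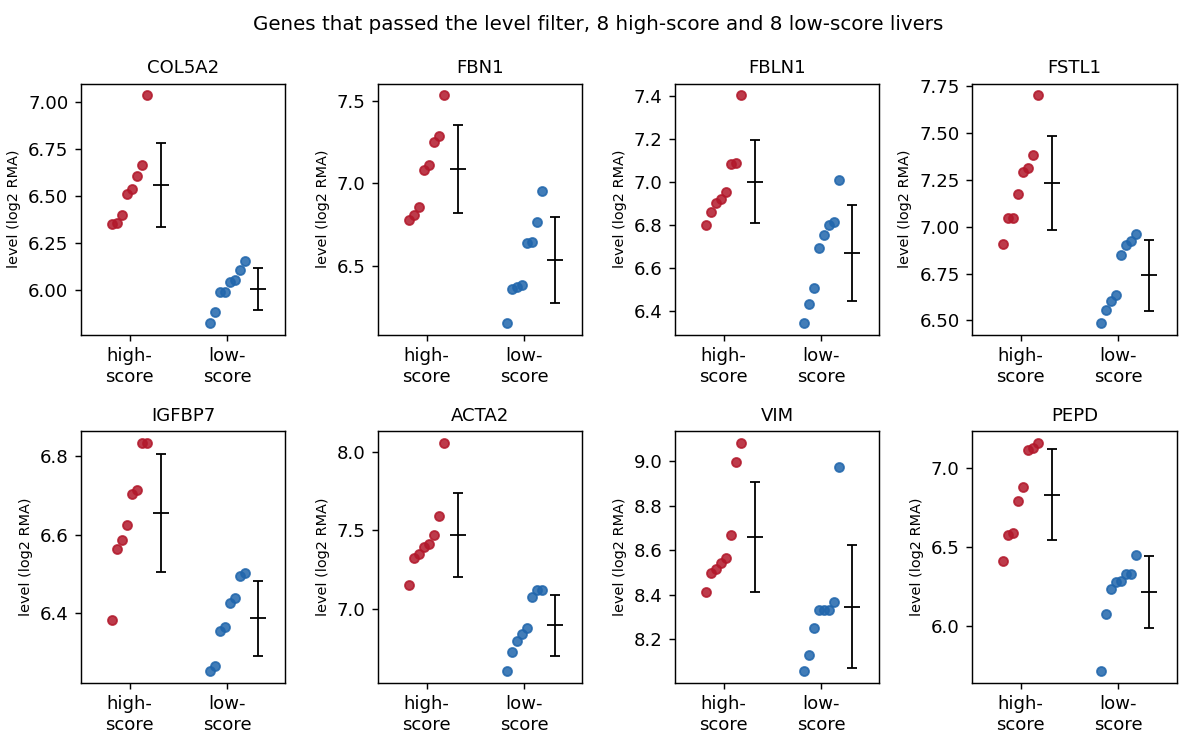
Log2 RMA levels of 8 genes that passed the level filter in the 8 high-score livers (red) and the 8 low-score livers (blue), 1 point per liver; bars beside the points show the mean and SD. COL5A2 and ACTA2 have groups that do not overlap, at 6.35 to 7.04 against 5.82 to 6.15 and at 7.15 to 8.06 against 6.60 to 7.12, and the vimentin level of 1 low-score liver, fetus 311, lies among the highest.

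**Figure D4:**
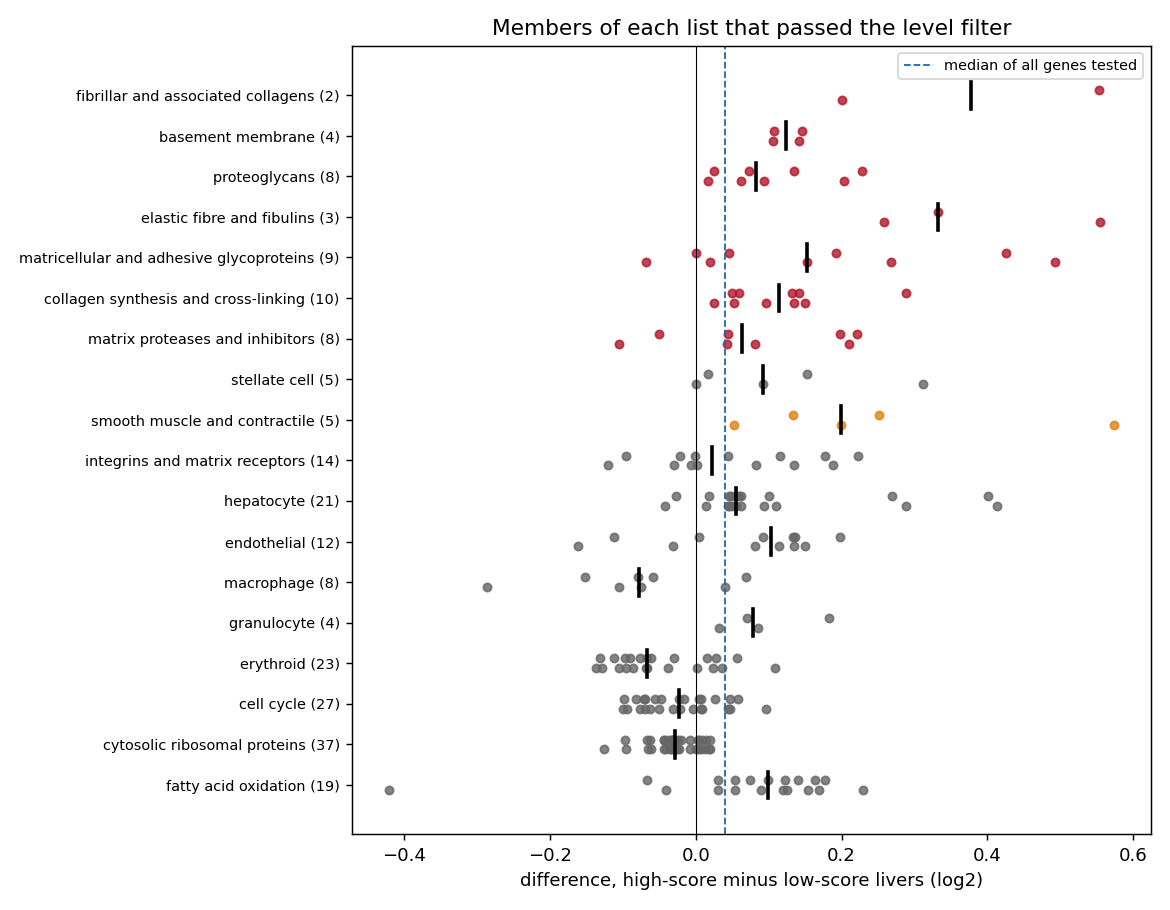
Each point is a gene that passed the level filter, placed by its log2 difference (high-score minus low-score livers) and listed by group, with the number of genes in parentheses; black bars are list medians and the dashed line is the median of all genes tested, 0.04. The matrix lists (red) and the contractile genes (orange) have medians of 0.06 to 0.38, and erythroid, cell cycle, ribosomal and macrophage genes have medians below 0.

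Signalling genes through which stromal cells are regulated showed few differences. Of 9 tested genes of TGF-beta and BMP signalling, 8 had a higher mean in high-score livers as deposited and 5 with aligned array medians. Over all genes tested the shares were 69.2% and 50.0%. SMAD4, the shared mediator of both pathways, was at 7.64, 7.92 and 8.05 in high-score livers and 7.57, 7.70 and 7.86 in low-score livers. All high-score livers but fetus 312 lay above the highest low-score liver, and the difference of 0.21 had an unadjusted p of 0.00441 and an adjusted p of 0.675 (limma). ENG, a TGF-beta co-receptor of endothelium, differed by 0.11, and ID2, a BMP target, by 0.23, with 1 low-score liver, fetus 311, at 8.16. Among PDGF, HGF and FGF genes, the HGF receptor gene MET, the VEGF receptor gene KDR and FGFRL1 differed by 0.18, 0.14 and 0.06. Of the genes named here only SMAD4 reached an unadjusted p of 0.05.

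Of the integrins and matrix receptors, 8 of the 14 tested had a higher mean in high-score livers, beside 69.2% of all genes tested. With aligned array medians it was 7, beside 50.0% of all genes. The laminin receptor chain ITGA6 differed by 0.22 and ITGA9, which binds tenascin, by 0.19, both with an unadjusted p under 0.05 and an adjusted p of 0.811 (limma). Probe sets disagreed for ITGA9, where others above the level filter differed by 0.17 and -0.01. ITGA1, a collagen receptor chain, differed by 0.18. Of 7 tested mesenchymal transcription factors, 6 had a higher mean. YAP1, the effector of the Hippo pathway, was at 6.03, 6.26 and 6.48 in high-score livers and 5.84, 6.04 and 6.12 in low-score livers, a difference of 0.20 with an adjusted p of 0.811. NR2F2, a nuclear receptor of veins and mesenchyme, differed by 0.25 and ETS1 by 0.10, with adjusted p of 0.847 and 0.978. All 5 tested genes of retinoid handling had a higher mean, and 1 reached an unadjusted p of 0.05. It was RARB, a retinoic acid receptor, at 6.31, 6.58 and 6.79 in high-score livers and 5.87, 6.32 and 6.62 in low-score livers, a difference of 0.29 with an adjusted p of 0.811. RDH11, a retinol dehydrogenase, differed by 0.11. In the IGF axis 4 of 12 tested genes had a higher mean and 8 a lower one, and apart from IGFBP7 none reached an unadjusted p of 0.05. IRS2, an adaptor of the insulin receptor, and IGF2BP2, an RNA-binding protein, differed by -0.12 and -0.11.

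Several matrix genes below the level filter had wider differences than any gene above it, at levels that background controls also reached. The genes of this paragraph and the next 2 were chosen after their values were seen. Without the filter 13751 genes were tested. Of these, 4 were higher in high-score livers at an adjusted p under 0.05 (0.0291%), none was lower (0%), 466 were higher at an unadjusted p under 0.05 (3.39%) and 388 lower (2.82%). The groups did not overlap for 13 genes that were higher (0.0945%) and for none that was lower (0%). Of the 134 matrix genes, 99 had a higher mean in high-score livers, beside 55.1% of all 13751 genes. At an unadjusted p under 0.05, 26 of the 134 were higher and 2 lower, and 3 passed the test, namely COL5A2, VCAN and DPT. The median difference of the 134 was 0.09, against 0.01 over all 13751 genes.

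VCAN encodes versican, a large proteoglycan of loose and provisional matrix. It was at 5.08, 5.55 and 6.14 in high-score livers and 4.30, 4.61 and 4.98 in low-score livers, with no overlap. VCAN rose by 0.90 (SE 0.148) with an adjusted p of 0.0379 (limma without the filter). DPT, which encodes dermatopontin, a partner of decorin in fibril assembly, was at 2.79, 3.67 and 4.17 in high-score livers and 2.59, 2.63 and 2.93 in low-score livers. Of the high-score livers only fetus 363 lay within the low-score range. DPT was higher by 0.91 (SE 0.147) with an adjusted p of 0.0379. The low-score levels of DPT were close to or under the mean of the background controls, which was 2.88 to 3.01 in high-score livers and 2.92 to 3.02 in low-score livers, so the value of 0.91 is no measured fold. The fourth gene called without the filter carries the platform's symbol PTF-BETA and was at 3.67 to 4.36 in high-score livers and 2.98 to 3.31 in low-score livers, a difference of 0.75 with an adjusted p of 0.0245.

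For small proteoglycans of the decorin family and the genes beside them at levels near 3, low-score livers were near the mean of the background controls, so their differences give a direction and no measured fold. LUM, which encodes lumican, was at 2.27, 4.96 and 5.77 in high-score livers and 1.88, 2.91 and 3.54 in low-score livers. Its high-score livers spread from background to well above the others, and the difference of 1.76 (SE 0.406) had an adjusted p of 0.227 (limma without the filter). OGN, which encodes osteoglycin, was at 3.22, 3.79 and 5.40 in high-score livers and 2.42, 2.82 and 2.93 in low-score livers, with no overlap, and differed by 1.27 with an adjusted p of 0.0523. SPARCL1, a relative of SPARC, was at 2.98, 3.59 and 5.14 in high-score livers and 2.10, 2.45 and 2.82 in low-score livers, also with no overlap, and differed by 1.31 with an adjusted p of 0.0523. COL12A1, a collagen on fibril surfaces, differed by 0.83, the gelatinase gene MMP2 by 0.70, the cross-linking enzyme gene LOX by 0.78 and the basement membrane collagen gene COL4A1 by 0.34. TAGLN, an actin-binding protein of smooth muscle, differed by 0.74 and RGS5, a pericyte marker, by 0.93. The adjusted p of these 6 genes lay between 0.122 and 0.329. PDGFRA, the PDGF receptor of mesenchymal cells, was at 3.88 to 4.68 in high-score livers and 3.75 to 4.32 in low-score livers and differed by 0.23 (adjusted p = 0.827). The collagens pointed both ways. Of the 14 fibrillar and associated collagens with a named probe set, 6 had a higher mean without the filter, beside 55.1% of all genes. The median difference of these 14 was -0.03. Among the lower ones, COL8A1, COL11A1 and COL16A1 differed by -0.30, -0.26 and -0.21.

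**Figure D5:**
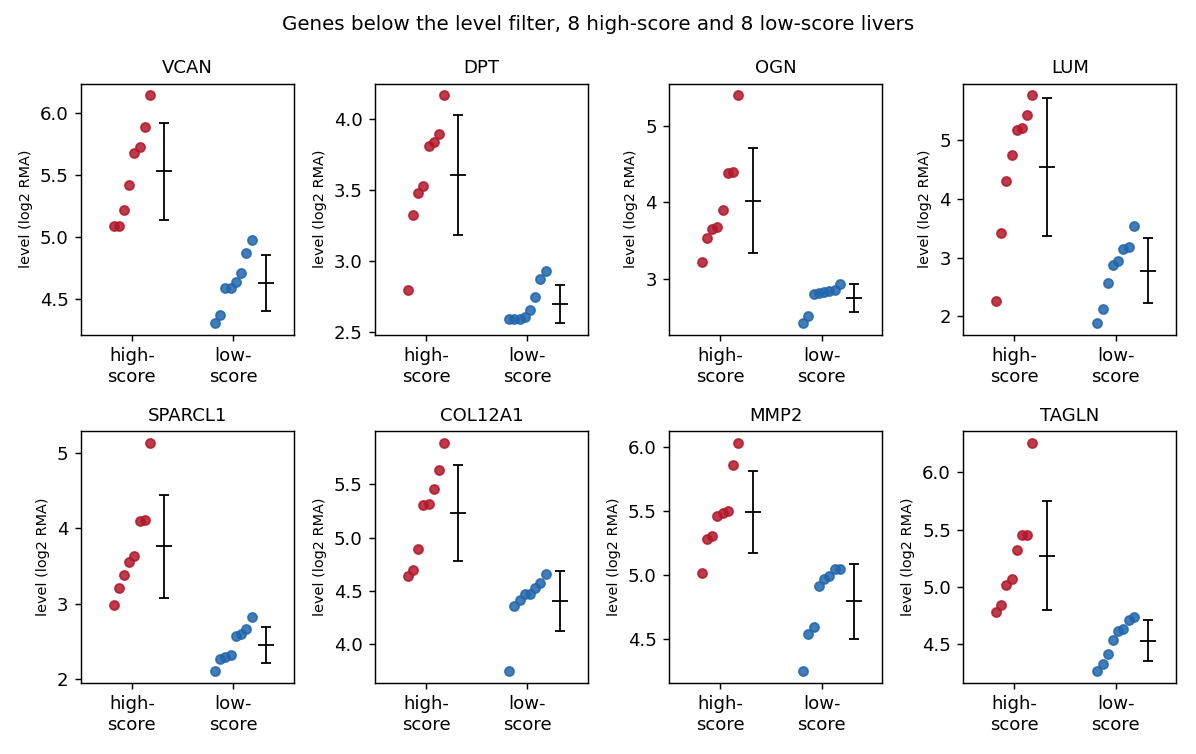
Log2 RMA levels of 8 genes below the level filter in the 8 high-score livers (red) and the 8 low-score livers (blue), 1 point per liver; bars beside the points show the mean and SD. VCAN, OGN, SPARCL1 and TAGLN have groups that do not overlap, and LUM covers 2.27 to 5.77 in high-score livers against 1.88 to 3.54 in low-score livers.

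Markers of hepatocytes had small differences between the score groups, with some wider single genes. The mean level of 21 tested hepatocyte genes was 11.08 to 11.33 in high-score livers and 11.04 to 11.19 in low-score livers. Of the 21, 19 had a higher mean in high-score livers, beside 69.2% of all genes tested, and none reached an unadjusted p of 0.05. With aligned array medians, where 50.0% of all genes had a higher mean, 17 of the 21 did. Their median difference was 0.06, and the mean level was 11.19 ± 0.083 in high-score livers and 11.09 ± 0.048 in low-score livers (SD). The plasma protein genes APOH, APOA2 and FGG differed by 0.27, 0.29 and 0.11, with adjusted p of 0.847, 0.857 and 0.857 (limma). ALB, chosen after its values were seen, was at 11.79, 12.74 and 12.97 in high-score livers and 11.43, 12.32 and 13.02 in low-score livers, so the groups overlapped over nearly the whole range. Its difference was 0.41 (SE 0.227, adjusted p = 0.857, limma), and 7 of the 8 high-score livers lay above the low-score median. Of the genes on the biliary list that passed the filter, CLDN4 differed by 0.19. The keratin genes KRT8 and KRT18 differed by 0.03 each, or by -0.01 each with aligned array medians. Whether the keratin signal came from bile ducts was not tested. Without the filter, 9 of 10 biliary genes with a named probe set had a higher mean in high-score livers, beside 55.1% of all genes. The median difference of the 10 was 0.19, and 1 was higher at an unadjusted p under 0.05 (limma).

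Endothelial genes had a median difference of 0.10 over 12 tested members, against 0.04 over all genes tested. Of the 12, 9 had a higher mean in high-score livers, near the share of 69.2% of all genes. With aligned array medians 8 did, beside 50.0% of all genes. STAB2, a scavenger receptor of sinusoidal endothelium, was at 7.60, 7.88 and 8.22 in high-score livers and 7.46, 7.66 and 7.89 in low-score livers, a difference of 0.20 with an unadjusted p of 0.0349 and an adjusted p of 0.811 (limma). TEK, the angiopoietin receptor, differed by 0.14 and FCGR2B, an Fc receptor of sinusoids, by -0.16. The groups overlapped for all 3 genes, and the mean level of the list was 7.49 to 7.88 in high-score livers and 7.44 to 7.78 in low-score livers.

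Macrophage genes lay toward the low-score side. Of 8 tested, 6 had a lower mean in high-score livers and the median difference was -0.08. AIF1, a calcium-binding protein of macrophages, was at 5.28, 5.96 and 6.23 in high-score livers and 5.99, 6.24 and 6.32 in low-score livers, a difference of -0.29 with an unadjusted p of 0.0304 and an adjusted p of 0.811 (limma). All 8 high-score livers lay below the low-score median, at levels within the background range. HMOX1, the heme-degrading oxygenase, differed by -0.15 and CTSS, a lysosomal protease of antigen-presenting cells, by -0.11.

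Granulocyte genes stood out in 1 liver of each group. S100A12, MPO and S100A9, which encode granule and calgranulin proteins, were highest in fetus 312 among high-score livers, at 11.64, 9.62 and 9.91, and in fetus 311 among low-score livers, at 11.49, 10.36 and 9.61. The medians of S100A12 were 8.96 in high-score livers and 8.83 in low-score livers. The differences of the 3 genes were 0.18, 0.07 and 0.09. Each turned negative, to -0.15, -0.17 and -0.33, when fetus 312 was left out and fetus 311 stayed in. With 1 liver left out in turn, the differences reached 0.52, 0.42 and 0.47 at the highest. Without fetuses 274, 311 and 312, all 4 tested granulocyte genes had a higher mean in high-score livers, beside 77.4% of all genes. Their median difference was then 0.11.

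Erythroid, cell cycle and ribosomal genes were mostly lower in the mean of high-score livers, by small amounts. Of 23 tested erythroid genes, 16 had a lower mean in high-score livers and none reached an unadjusted p of 0.05. The mean level of the list was 8.82 to 9.30 in high-score livers and 9.05 to 9.51 in low-score livers. SLC25A37, the mitochondrial iron importer, EPB41, a red cell skeleton protein, and GYPC, a glycophorin, differed by -0.14, -0.13 and -0.10. Of 27 cell cycle genes 17 had a lower mean, with TYMS, PLK1 and CCNB1 differing by -0.10, -0.10 and -0.09, and of 37 ribosomal protein genes 26 had a lower mean. With aligned array medians, where 50.0% of all genes had a higher mean, 2 of the 23 erythroid, 5 of the 27 cell cycle and none of the 37 ribosomal protein genes did. Without fetuses 274, 311 and 312, where 77.4% of all genes had a higher mean, 12 of the 23 erythroid and 21 of the 27 cell cycle genes had a higher mean and 10 of the 37 ribosomal protein genes. Megakaryocyte genes were lower in the mean for all 3 tested, and GP1BB, a chain of the platelet receptor for von Willebrand factor, was at 6.12, 6.77 and 6.89 in high-score livers and 6.65, 6.95 and 7.30 in low-score livers, a difference of -0.29 with an adjusted p of 0.811 (limma). GP9, a chain of the same receptor, and SELP, the platelet and endothelial selectin, differed by -0.10 and -0.06. CD4 was the only lymphocyte gene that passed the filter and differed by 0.0047. The part of these cell types in the differences of the matrix genes was not tested.

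The 2 interferon-stimulated genes that passed the filter varied more within the groups than between them. IFI6 was at 5.29, 7.15 and 8.28 in high-score livers and 5.99, 6.62 and 9.69 in low-score livers, and IFIT1 at 5.64, 6.25 and 7.01 in high-score livers and 5.82, 6.35 and 7.96 in low-score livers. Fetus 360 of the low-score livers had the highest level of both. The differences were -0.36 and -0.33 with adjusted p of 0.988 and 0.978 (limma). Without the filter, 0 of 17 interferon-stimulated genes with a named probe set had a higher mean in high-score livers, beside 55.1% of all genes. The median difference of the 17 was -0.33. At an unadjusted p under 0.05 (limma), 2 of them were lower, beside 2.82% of all genes.

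Genes of fatty acid oxidation and cholesterol synthesis differed by small amounts, and their counts are to be read beside the 69.2% of all genes that had a higher mean and the 5.33% that were higher at an unadjusted p under 0.05. Of 19 tested genes of fatty acid oxidation, 16 had a higher mean in high-score livers, 14 with aligned array medians, and 4 were higher at an unadjusted p under 0.05, 2 with aligned medians. ETFA, which passes electrons from the dehydrogenases of this pathway, was at 8.16, 8.45 and 8.62 in high-score livers and 8.11, 8.18 and 8.32 in low-score livers. Of the high-score livers 6 lay above the highest low-score liver, and the difference of 0.23 had an adjusted p of 0.634 (limma). The carnitine carrier gene SLC25A20 and HADHA, a subunit of the trifunctional protein, differed by 0.18 and 0.14, whereas the thiolase gene ACAA2, chosen after its values were seen, differed by -0.42. Of 12 genes of cholesterol synthesis 11 had a higher mean, with NSDHL, FDPS and FDFT1 differing by 0.14, 0.14 and 0.12, and none reached an unadjusted p of 0.05.

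Hypoxia and stress genes did not separate the groups. Of 14 tested hypoxia genes 8 had a higher mean in high-score livers, and EGLN1, the oxygen-sensing hydroxylase, differed by 0.15 with an unadjusted p of 0.0371 and an adjusted p of 0.811 (limma). ARNT, the partner of the hypoxia-inducible factors, and the pyruvate dehydrogenase kinase gene PDK1 differed by 0.14 and 0.08. The heat shock genes HSPA8, HSP90AA1 and HSPB1 differed by 0.08, 0.08 and 0.07.

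Several genes outside the lists stood near the top of the ranking. They were chosen after their values were seen. PEPD encodes prolidase, which frees proline from the dipeptides left by collagen breakdown. It was at 6.41, 6.84 and 7.16 in high-score livers and 5.71, 6.28 and 6.45 in low-score livers. All high-score livers but fetus 313 lay above all low-score livers, and the difference of 0.62 (SE 0.120, 1.53-fold) had an adjusted p of 0.0746 (limma). The livers between the groups were at 5.59 to 7.02 with a median of 6.28, the same as the low-score median. Over all alternatives in which PEPD was tested, its adjusted p ranged from 0.0336, without fetus 313, to 0.996. PIGY, which encodes a subunit of the enzyme that starts GPI anchor synthesis, was at 6.80 to 7.02 in high-score livers and 6.52 to 6.77 in low-score livers, a difference of 0.22 with no overlap and an adjusted p of 0.307. STXBP6, a SNARE-binding protein, differed by 0.39 (adjusted p = 0.202), ELK3, an ETS-family transcription factor, by 0.32 (adjusted p = 0.307) and PTGR2, a prostaglandin reductase, by 0.45 (adjusted p = 0.307). The glutathione transferase genes GSTA4 and GSTA1 differed by 0.53 and 0.50, and signal from related family members cannot be told apart on these probe sets. The acute-phase gene LBP had the widest difference of all genes tested, 0.74, but its levels of 7.08 to 8.34 in high-score livers and 5.93 to 8.10 in low-score livers overlapped and the adjusted p was 0.811. The complement genes C8B and C8A differed by 0.60 and 0.44, also with groups that overlapped.

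No gene was lower in high-score livers after adjustment, and the smallest adjusted p in that direction was 0.415 (limma). It belonged to the pig probe set of MIR181D, a microRNA gene, which was at 6.91, 7.40 and 7.79 in high-score livers and 7.55, 7.90 and 8.09 in low-score livers. All high-score livers lay below the low-score median, the ranges overlapped, and the difference was -0.46 (SE 0.124). The human and cattle probe sets of the same name were dimmer and differed by -0.03 and 0.03. The other genes with the smallest p in this direction included CERK, the ceramide kinase gene (-0.17), the osmotic stress factor gene NFAT5 (-0.18 on the probe set used), the flap endonuclease gene FEN1 (-0.16) and the cyclin-dependent kinase inhibitor gene CDKN2B (-0.20). UBAP2, ARHGAP19 and SNX18 differed by -0.20, -0.16 and -0.22. Probe sets disagreed for NFAT5, where 3 others above the level filter differed by 0.30, 0.08 and 0.06, and for UBAP2, where 1 other differed by 0.01. All 7 had an adjusted p of 0.811 and groups that overlapped. BANK1, a B cell adaptor gene chosen after its values were seen, had the most negative difference of the genes tested, -0.62, at 5.77, 7.20 and 8.02 in high-score livers and 7.13, 7.56 and 8.15 in low-score livers, with an adjusted p of 0.811.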

How the data were processed

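Each of 24 fetal pig livers (63 dpc) was measured on 1 array. The deposited log2 values were made by the authors with RMA after quality control with GCOS 1.1.1; the sources used here do not give the genome build of the probes. They cover 47845 probe sets, of which the platform annotation, which can be old, names 26426 with 1 gene symbol; the others stay unnamed here. For each gene the probe set with the highest mean was used. The number of arrays limits the precision.

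Groups, lists and genes were chosen with earlier results of these data known. Differences are high-score minus low-score livers, tested two-sided with limma 3.58.1 (R 4.3.3) and Benjamini-Hochberg adjustment over all genes tested, with no covariate, since growth group, sex and dam were not mapped; sibling livers were treated as independent, so p-values are approximate. They describe association with a score taken from the same arrays. The fit was tested on simulated data. Named genes are the score genes, called genes, the 3 smallest p in each list and the 10 smallest p among lower genes; others were chosen after their values were seen. Alternatives were other level limits, probe set rules, array scaling, group sizes, score definitions, covariates and left-out livers. No array column lacked a sample (0). No sequences or coordinates are reported.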

Additional observations from a re-analysis of the deposited data

Results flagged for a closer look

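In 25 of 258 groups of 8 livers checked, the highest or lowest liver stood apart from the other 7 by more than Dixon's 95% critical value; chance flags about 1 in 20 groups. All values are log2 levels.

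Fetus 297, the liver with the highest score, stood above the other high-score livers for COL5A2 (7.04), TAGLN (6.26) and COL4A1 (5.84). Fetus 274, the liver with the lowest score, stood below the other low-score livers for COL12A1 (3.74) and FGG (11.46). It did so for the score genes COL1A2 (6.86) and DCN (5.07) too. The score genes ranked the livers, so their flags describe that ranking and are no separate evidence.

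Fetus 312 stood apart from the other high-score livers with high S100A12 (11.64), S100A9 (9.91) and CTSS (8.18), and with low RELN (7.40), TPM1 (6.36), SMAD4 (7.64) and ALB (11.79). Fetus 311 stood apart from the other low-score livers with high S100A12 (11.49), S100A9 (9.61), MPO (10.36), VIM (8.97) and ARNT (7.40). The same 2 livers were the most extreme on the first principal component.

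The remaining cases were single genes. Among high-score livers, ALCAM was low in fetus 281 (6.85), PDK1 low in fetus 376 (5.99) and EGLN1 high in fetus 370 (7.32). Among low-score livers, SERPINH1 was low in fetus 338 (6.09), YAP1 low in fetus 283 (5.84) and PIGY low in fetus 340 (6.52).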

How the results depend on the processing

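No gene was lower in high-score livers at the threshold under any alternative run. The number of genes higher, 1 in the main comparison, was 0 with a level limit of 7, with the limit of 6 met in all 24 arrays, with aligned array medians, with 6 against 6 livers, with a score without DCN, without fetus 274, without fetuses 311 and 312, and without all 3 (chosen after seeing the data). It was 2 with 12 against 12 livers, DCN alone, all probe sets in the score or the score as a mean rank, 3 at an adjusted p under 0.1, and 4 with no filter or with the score as a continuous value. With 1 liver left out it was 0 to 2: 0 without fetus 312, 376, 340, 384 or 274, and 2 without fetus 313 or 363. COL5A2 kept its direction wherever it was tested, with differences of 0.48 to 0.58 when 1 liver was left out and an adjusted p of 0.0057 to 0.0658 (limma). Where the mean of all probe sets or the probe set with the largest SD was used, COL5A2 itself did not pass the filter and ACTA2 was called in its place. It was not among the genes tested with a limit of 7 or with the limit met in all arrays either. The matrix genes higher at an unadjusted p under 0.05 numbered 11 of 44, and 2 of 20 with a limit of 7, 26 of 134 with no filter, 4 of 21 with the mean of all probe sets and 7 with aligned array medians. Fewer genes passed with the stricter limit and the averaged probe sets; the other causes were not tested. Groups from other score definitions shared 6 or 7 of the 8 high-score livers and all 8 low-score livers.

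Of 106 genes, 98 kept their direction in every alternative in which they were tested, which was 34 to 38 of the 38, and 8 small differences turned. Other level limits, another variance model in limma and the looser p threshold leave a difference unchanged, so these could not turn it. Leaving out fetus 274 was counted more than once among the alternatives. FGFRL1 was -0.0199 with 6 against 6 livers. KRT18 was -0.100 with the mean of probe sets, -0.226 with the largest SD, -0.0146 with aligned array medians and -0.0268 with 12 against 12 livers, and -0.0563 to 0.103 with 1 liver left out. KRT8 was -0.0148 with aligned medians, -0.1000 with 12 against 12, -0.0031 without fetus 274, and -0.0191 to 0.101 with 1 liver left out. S100A12 was -0.0726 with 12 against 12 and -0.154 to 0.523 with 1 liver left out. MPO was -0.0155 with 12 against 12, -0.0169 without fetus 274, and -0.166 to 0.423 with 1 left out. S100A9 was -0.0019 with 10 against 10, -0.129 with 12 against 12, and -0.334 to 0.475 with 1 left out. SELP was 0.0295 with all probe sets in the score or mean ranks, 0.0041 without fetuses 311 and 312, and -0.120 to 0.0433 with 1 left out. CD4 was -0.0356 with aligned medians, -0.180 with 6 against 6, -0.0159 with 10 against 10, -0.0123 with 12 against 12, -0.0291 with a score without DCN, -0.0064 with all probe sets or mean ranks, -0.0163 without fetus 274, -0.0254 with array weights, and -0.0697 to 0.0925 with 1 left out. The causes were not tested. No paired analysis was possible because the labels put all livers in 1 group and their numbers name the fetus. Levels near or below 6 lie within the range of the background controls, which limits the dim genes.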
